A study of Mus musculus with 35 samples.

Results

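The genic piRNA clusters described here are 114 loci of the mouse genome whose names join pi- to the symbol of a gene. They are all the rows with that prefix in the table of small RNA reads per piRNA cluster and in the 3 tables of long RNA reads per piRNA precursor. The cluster table held 219 rows, of which 119 had the prefix, and 5 of these, numbered copies that began at the start of pi-Ip6k1 and covered 3932 bases, held no read in any library. The 114 remaining loci were also in each precursor table, among 214 rows. The other 100 clusters are named by chromosome band and were the comparison for the pi- loci. All 114 passed the filters on low counts in every comparison.

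The germ cells came from adult mice of mixed C57Bl/6J and SV129 background in which Smg6, the endonuclease of nonsense-mediated mRNA decay (NMD), was conditionally deleted with a Cre recombinase under the Ngn3 promoter, which acts from spermatogonia onwards (Smg6-cKO, exon 9 floxed on both alleles). The controls (CTRL) were littermates without the Cre that carried 1 or 2 floxed alleles (Smg6 fx/wt or Smg6 fx/fx), so that floxed Smg6 was present in every group. Spermatocytes (Sc in the small RNA data, Spc in the RNA-seq) and round spermatids (RS) were enriched by sedimentation of cells from several testes, and chromatoid bodies (CBs), the germ granule of round spermatids, were isolated from pooled mice with an antibody against the RNA helicase DDX4. Small RNA was sequenced in 5 cKO and 5 CTRL libraries of Sc and in 3 and 3 of RS, poly(A) RNA in 3 and 3 libraries of each cell type, and total RNA in 3 cKO and 4 CTRL preparations of CBs. The methods describe fewer samples per group than there are Sc libraries, so p-values there measure the spread between libraries, which may be partly technical.

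PIWI-interacting RNAs (piRNAs) are small RNAs cut from long single-stranded precursors and loaded onto PIWI proteins, which use them to find transposon and other RNAs to silence. In the mouse testis the most abundant piRNAs of meiotic and haploid cells come from intergenic pachytene clusters, many of them switched on by the transcription factor A-MYB (Mybl1), whereas genic clusters make piRNAs from the transcripts of genes, often from the 3′ UTR. A genic precursor can therefore also be an mRNA, and its reads do not separate the 2 fates.

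Nearly all of these loci lay on a gene. Of the 114, 113 overlapped the gene of their name on its own strand, 112 of them coding genes and 1 a lincRNA, Gm5878. No annotated gene was matched to the name pi-BC026590. The median locus was 36.1 kb long (0.747 to 599.1 kb), lay to 100% within its gene and to 18.6% within the exons of that gene, and the loci were spread over 19 chromosomes. Of the 100 band-named clusters, 9 overlapped a coding gene in sense, and their median length was 24.9 kb.

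Promoter sequences are shown for 6 loci named in the results that follow. RefSeq promoters (GRCm38.p6, 250 bases before to 50 after the start) were matched by gene symbol for 82 of the 114 loci, and 61 of these starts lay within 100 bases of the 5′ end of the locus. Letters of a MYB site, CAACNG or GGCAGTT on either strand, are in capitals. The first 4 windows were chosen because they hold these letters, and the last 2, which are centred on the start, because their promoters hold none. They are shown 5′ to 3′ on the strand of the gene.

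pi-Tbl2, chr5:135149644-135149673, plus strand: ctcgaggcgcgcCAACTGtcctcccccgcc

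pi-Asb1, chr1:91540536-91540565, plus strand: cagaagctgctgCTGTTGcctcgggagacg

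pi-Kctd7, chr5:130144903-130144932, plus strand: gcgcgttggtcgttagaCTGTTGgagggca

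pi-Hjurp, chr1:88277559-88277588, minus strand: cgcgggcaggatCGGTTGcgtaaatacttt

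pi-Trim71, chr9:114564355-114564384, minus strand: ctcgggcggaagtgagtttgctcctttgga

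pi-Luzp1, chr4:136469746-136469775, plus strand: gccccgcccctcattgtcagtctgggggag

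The letters lay 27 and 14 bases before the RefSeq start at pi-Tbl2 and pi-Asb1 and 40 and 6 bases after it at pi-Kctd7 and pi-Hjurp. At pi-Tbl2 and pi-Asb1 that start lies 521 and 549 bases inside the locus, and at pi-Tmem194 the nearest matched start lies 9865 bases inside, so these are starts of the gene and not of the locus. The promoters of pi-Trim71, pi-Ssh1, pi-Luzp1, pi-Cbl, pi-Ctdsp2, pi-Lpp and pi-Zfp382, all named in the results, held no such letters. They occurred in 40.2% of the 82 pi- promoters and in 36.8% of all 32851 promoters of the same length. Ordered by mature piRNA level in Sc CTRL, 8 of 29 promoters of the 38 loci with the lowest levels held them, 9 of 29 of the 38 middle loci and 16 of 24 of the 38 loci with the highest levels (27.6%, 31.0% and 66.7%). Among the 61 promoters whose start was within 100 bases of the locus end, the shares were 28.6%, 28.0% and 53.3% (8 of 15 in the last set). The letters CCAAT, searched in the same way, were in 37.4% of all promoters, in 44.8%, 41.4% and 45.8% of the 3 sets of the 82 promoters and in 52.4%, 40.0% and 46.7% of the 3 sets of the 61. A match is a description of the letters in this window. pi-Gm5878, pi-1700006A11Rik, pi-Zmat3, pi-Igsf9b, pi-Igf2bp1 and pi-Uhrf1bp1 had no matched entry.

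The cluster table held 4823440 to 12372524 reads per library, and precursor reads per library numbered 1252512 to 1851686 in Spc, 424895 to 733397 in RS and 242461 to 1788044 in CBs. Each library was counted separately, since pairs of libraries of a group differed by more than sampling noise, but this does not separate repeat preparations of 1 sample from separate samples. A pair of cKO small RNA libraries lay closer to the other cell type than to their own group. On the log2 scale of cluster reads, RS cKO library S16 was at a mean distance of 0.29 from the Sc cKO libraries and of 0.452 from its own group, and Sc cKO library S22 at 0.289 from the RS cKO libraries and 0.362 from its own. In miRNA reads S16 and S22 were again nearest to the other cell type of cKO, and Sc cKO library S24 was nearest to RS CTRL (0.689 against 0.739 from its own group). Shares, counts of mature piRNA and joint counts are also given without S16 and S22. Without them no locus called in mature RS lost its call, 3 of 82 did in Sc, and none of the called loci changed sign. In RS this says little, since S16 was the cKO library nearest to CTRL. Its mean distance from RS CTRL was 0.738, against 0.988 for S15 and 0.923 for S17. Gene-level Smg6 reads were 116 to 184 CPM in CTRL and 181 to 189 in cKO of Spc, 123 to 201 and 170 to 181 in RS, and 175 to 198 and 156 to 194 in CBs. They overlapped in each and did not pass (adjusted p = 0.352 in Spc, 0.798 in RS and 0.817 in CBs, edgeR), and they do not check the deletion of exon 9.

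Markers of other cell types moved with the genotype. For comparison with the marker counts, 40.1% of all genes were higher and 32.7% lower in RS. The shares were 13.8% and 13.6% in Spc and 16.3% and 18.6% in CBs. In RS, the summed level of 8 macrophage markers was 25.8 to 37.3 CPM (reads scaled to equal library totals) in CTRL and 163 to 267 in cKO (8 of 8 higher), of 5 Leydig cell markers 6.89 to 7.12 and 26.0 to 273 (5 higher), of 6 Sertoli cell markers 36.8 to 46.3 and 54.7 to 168 (6 higher), and of 6 spermatogonial markers 35.2 to 45.0 and 66.7 to 103 (5 higher). The 5 round spermatid markers summed to 1648 to 1713 and 621 to 776 (5 lower), the 6 late spermatid markers to 17980 to 24710 and 1009 to 1203 (6 lower), and the 6 spermatocyte markers to 398 to 421 and 450 to 462 (2 higher, 1 lower). In Spc the late spermatid markers were lower in cKO (6 of 6, 2644 to 5785 against 235 to 868), as were 4 of 6 Sertoli markers (264 to 706 against 149 to 218), while 2 of 5 Leydig markers were higher (118 to 374 against 534 to 1086) and 7 of 8 macrophage markers were higher and 1 lower (33.5 to 44.1 against 42.5 to 60.5). The summed spermatogonial markers (55.4 to 69.2 against 64.4 to 111) and round spermatid markers (533 to 818 against 397 to 561) overlapped in Spc, and 1 of 6 spermatocyte markers was lower. In CBs the round spermatid markers were lower (5 of 5, 216 to 255 against 113 to 122), the late spermatid markers too (6 of 6, 1152 to 2660 against 264 to 283), and the Leydig markers were higher (5 of 5, 9.91 to 39.3 against 28.3 to 282). Of 5 tested in each list, 3 spermatogonial markers (13.8 to 21.2 against 24.3 to 81.2), 3 macrophage markers (8.75 to 14.4 against 10.2 to 55.1) and 2 Sertoli markers (13.4 to 20.6 against 13.6 to 53.2) were higher too, and 1 of 6 spermatocyte markers was lower (254 to 305 against 185 to 259). No marker was at 0 in every library of a group. Their part in the results on pi- loci was not tested, and in bulk samples fewer cells of a type and less RNA per cell cannot be told apart.

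The pi- loci gave few of the mature piRNAs and many of the precursor reads. In Sc CTRL they held 3.05% ± 0.0462 (SD, n = 5) of all reads in the cluster table, and in RS CTRL 3.54% ± 0.0393 (n = 3). Of precursor reads they held 32.0% ± 1.29 in Spc CTRL, 60.6% ± 1.13 in RS CTRL (n = 3 each) and 17.0% ± 3.01 in CTRL CBs (n = 4). The same loci thus made up most precursor reads of RS CTRL and a small share of the mature reads.

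In cKO the mature share was larger. In Sc it was 3.57% ± 0.168 (n = 5), with every cKO library (3.43 to 3.84%) above every CTRL library (3.00 to 3.10%). The difference of 0.522 percentage points had an exact two-sided permutation p of 0.00794, the smallest that 252 regroupings can give, and 0.0397 after adjustment over the 5 shares tested. The test treats the 5 libraries of each group as independent, which the sources do not show, and some may come from 1 sample. Without library S22 the difference was 0.454 points and the exact p 0.00794. In RS the cKO share was 3.84% ± 0.217 against 3.54%, again with no overlap (3.59 to 4.01% against 3.49 to 3.57%), but 3 libraries against 3 allow no exact p below 0.1, which is the value obtained (adjusted 0.25). The difference was 0.298 points, and 0.419 points without S16, the cKO library with the lowest share. The precursor shares overlapped between genotypes in Spc (cKO 32.9% ± 1.62), RS (58.6% ± 3.30) and CBs (15.6% ± 0.423), with exact p of 0.5, 0.5 and 0.457 and an adjusted p of 0.5 for each.

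A few loci made most of the mature piRNAs. Levels are CPM, reads of a locus after every library of a comparison was brought to the same total, with TMM scaling, a trimmed-mean correction for library composition. Mature CPM refer to all reads of the cluster table and precursor CPM to all reads of the precursor table. They were scaled anew for each comparison, so that a locus has slightly different values in different comparisons. pi-Gm5878 (chr6:85111416-85126094, minus strand), the only one on a lincRNA, had a mean of 7051 CPM in RS CTRL and 5911 in Sc CTRL, which was 17.9% and 17.7% of all reads on pi- loci. By number of reads, not corrected for length, it was followed in RS CTRL by pi-1700006A11Rik (chr3:124398083-124425991, minus strand) with 3827, pi-Tmem194 (chr10:127667200-127701048, plus strand), named after the nuclear envelope protein gene Nemp1, with 3470, and pi-Cbl (chr9:44142979-44233996, minus strand), on the gene of a ubiquitin ligase that turns off receptor tyrosine kinases, with 3250. Per kb of locus, pi-Gm5878 also came first in RS CTRL (480 CPM per kb), then pi-Tbl2 (167), pi-1700006A11Rik (137) and pi-Asb1 (111). The 6 loci with the highest counts held 56.7% of pi- reads in RS CTRL and the 25 highest 91.6%, and the median locus had 36.0 CPM.

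The precursors had another order. Per kb, pi-Rplp1, on the gene of a ribosomal stalk protein, came first in Spc CTRL (3081 CPM per kb) and in RS CTRL (9989), where pi-Lsmd1 was next (7561). Across the 114 loci, mature and precursor levels per kb had Spearman rho 0.748 (Pearson r 0.717) in Sc and 0.573 (0.527) in RS of CTRL, as a description over loci that share libraries. One precursor read of pi-Gm5878 went with 4.12 mature reads in RS CTRL in CPM, that of pi-Zfp382 with 1.70 and that of pi-1700006A11Rik with 1.54. At the other end stood pi-Lpp, on a focal adhesion gene, with 0.000173, pi-Rplp1 with 0.000198 and pi-Luzp1, on a leucine zipper gene, with 0.000346. In Sc CTRL the order began with pi-Gm5878 (1.08), pi-Eif2c2 (0.704), on the Argonaute gene Ago2, and pi-Zfp382 (0.696), and ended with pi-Ankrd11 (0.00130), pi-Lpp (0.000889) and pi-Rplp1 (0.000613). The median locus had 0.0367 mature reads per precursor read in Sc and 0.0197 in RS.

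In cKO round spermatids most pi- loci had more mature piRNA than in CTRL, relative to the other clusters. Tested with edgeR (quasi-likelihood, p-values adjusted by Benjamini-Hochberg over 214 clusters), 75 of 114 loci were higher and 15 lower, where 39.7% of all clusters were higher and 36.9% lower. Of the band-named clusters, 10 were higher and 64 lower. The median log2 fold change was 0.69 for pi- loci, −0.23 for the band-named and 0.05 for all clusters. The values do not overlap between genotypes at 93 pi- loci, as at 79.9% of all clusters, and 18 were higher by at least 1.5 on the log2 scale, a size that 8.41% of all clusters reached. These values are relative to all piRNA clusters. Scaled to miRNA reads instead, the median of all clusters moved by −0.94 and 23 pi- loci were higher and 47 lower, while the pi- median stayed 0.65 above that of all clusters (0.64 before) and 87 loci lay above it (88 before).

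pi-Trim71 (chr9:114507222-114564369, minus strand), on the gene of a ubiquitin ligase that binds and represses mRNAs in stem cells, changed most. It had 5.40, 4.29 and 5.41 CPM in the CTRL libraries and 34.5, 19.5 and 27.0 in the cKO libraries. Every cKO library was above every CTRL library, with S16 the lowest of them, and the log2 fold change was 2.41 (SE 0.26, adjusted p = 0.000117). pi-Ssh1 (chr5:113937100-113993758, minus strand), on the gene of a phosphatase that activates cofilin, had 1.16, 1.54 and 1.17 in CTRL and 8.0, 5.06 and 6.39 in cKO. The groups did not overlap and the log2 fold change was 2.34 (SE 0.35, adjusted p = 0.000679), although the mean count was only 9.33 reads in CTRL and 39.7 in cKO. pi-Igf2bp1, on the gene of an mRNA-binding protein, had 2.12, 2.40 and 2.25 against 12.8, 4.50 and 9.58, pi-Snx30, a sorting nexin gene, 4.44, 2.06 and 2.70 against 14.99, 8.62 and 11.03, and pi-Fbxo41, an F-box protein gene, 1.54, 2.06 and 2.07 against 9.83, 4.88 and 7.40. In each of the 3 the groups were apart and S16 was the cKO library nearest to CTRL, with log2 fold changes of 1.99, 1.95 and 1.93 (adjusted p = 0.0031, 0.00134 and 0.00186).

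The 15 lower loci included the 3 largest producers, pi-Gm5878, pi-1700006A11Rik and pi-Tmem194. The lower calls depend on the scaling: by library size alone 3 were called in RS, pi-Zmat3, pi-Kctd7 and pi-Tmem194, and 3 in Sc. pi-Zmat3 (chr3:32334794-32365665, minus strand), on the gene of a zinc finger RNA-binding protein, had 304, 317 and 281 CPM in CTRL and 142, 77.2 and 127 in cKO RS. All cKO values were below all CTRL values, here with S16 the farthest, and the log2 fold change was −1.38 (SE 0.19, adjusted p = 0.000461). pi-Kctd7 (chr5:130144922-130155114, plus strand) had 582, 596 and 548 against 364, 358 and 350, and pi-Igsf9b, on the gene of a synaptic adhesion protein, 38.2, 36.0 and 38.0 against 25.3, 11.6 and 23.1. Both were lower without overlap (−0.69, SE 0.06, adjusted p = 3.47e-05, and −0.89, adjusted p = 0.0126). pi-Gm5878 had 7167, 7067 and 6919 in CTRL and 5671, 4925 and 5517 in cKO, and pi-Tmem194 3417, 3498 and 3494 against 2490, 2582 and 2560. The groups were apart, with log2 fold changes of −0.39 (SE 0.06, adjusted p = 0.000601) and −0.45 (SE 0.04, adjusted p = 6.7e-05). pi-Tbl2, pi-1700006A11Rik and pi-Asb1 were lower as well (−0.46, −0.41 and −0.24), whereas pi-Cbl did not pass (3296, 3286 and 3168 against 2817, 3265 and 2675, −0.16, adjusted p = 0.085) and its groups overlapped.

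**Figure D1:**
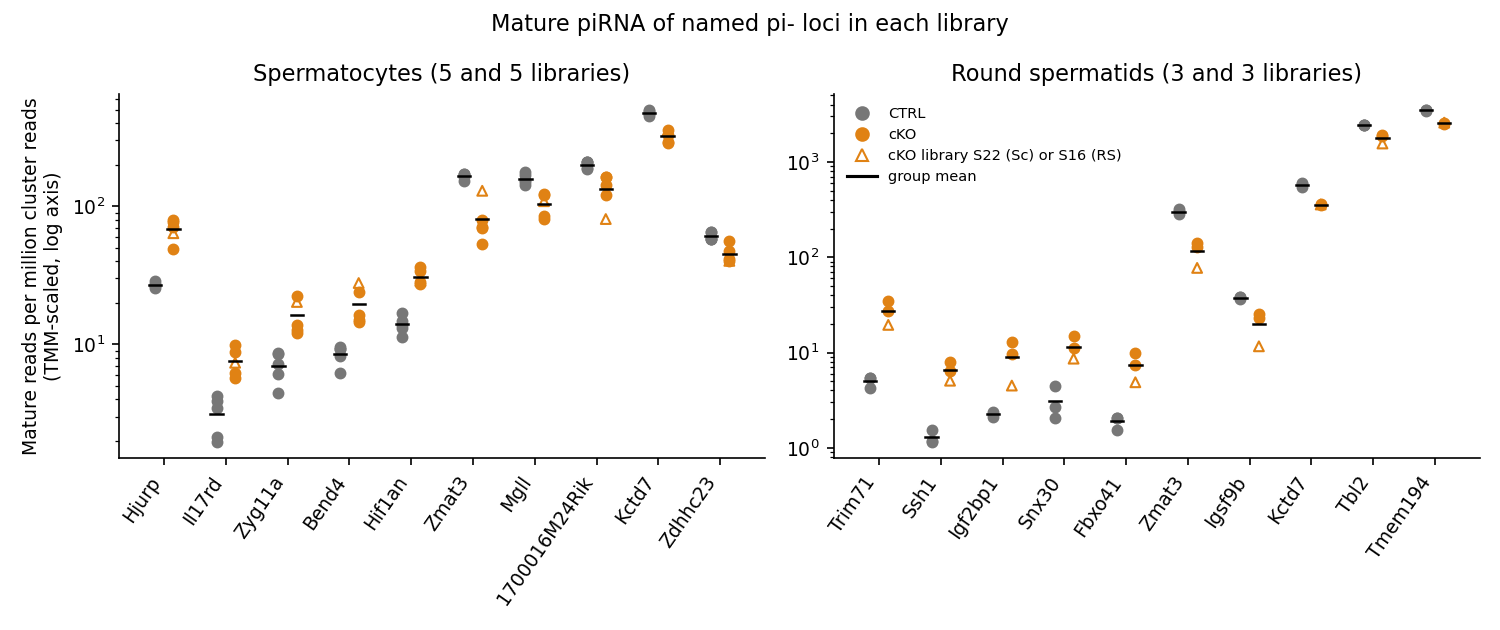
Mature piRNA CPM of cluster reads (log axis) in each small RNA library for named pi- loci in RS and Sc, with CTRL and cKO libraries as points, S16 and S22 as triangles and bars at the group means. In RS the 3 cKO libraries of pi-Trim71 sit between 19.5 and 34.5 against 4.29 to 5.41 in CTRL, and those of pi-Zmat3 between 77.2 and 142 against 281 to 317.

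Spermatocytes showed a similar split, with a lower median change. Of 114 loci, 70 were higher in cKO and 12 lower, with 40.2% and 30.4% of all clusters. The median log2 fold change was 0.53 for pi- loci, −0.17 for band-named clusters (16 higher, 53 lower) and 0.11 for all. The genotypes did not overlap at 59 pi- loci, as at 55.6% of all clusters. Scaling to miRNA reads moved the median of all clusters by +0.55 and left 1 pi- locus lower, and by library size alone 3 were lower. Under miRNA scaling the pi- median stayed 0.41 above that of all clusters (0.42 before).

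pi-Hjurp (chr1:88258856-88277518, minus strand), on the gene of the chaperone that brings CENP-A to centromeres, changed most in Sc. It had 26.4, 25.8, 26.8, 27.2 and 28.6 CPM in the CTRL libraries and 79.1, 63.8, 49.2, 76.5 and 70.7 in the cKO libraries. The 5 cKO values were all above the CTRL values and more spread, and the log2 fold change was 1.33 (SE 0.12, adjusted p = 9.45e-07). pi-Il17rd, on the gene of an inhibitor of FGF signalling, pi-Zyg11a and pi-Bend4 came next (1.26, 1.22 and 1.19) and then pi-Hif1an, on the gene of the asparagine hydroxylase that restrains HIF (11.2 to 17.0 against 27.5 to 36.4, 1.14). Among the lower loci, pi-Zmat3 had 152, 169, 162, 170 and 171 in CTRL and 79.7, 129, 70.2, 70.0 and 53.3 in cKO. Its groups did not overlap, with S22 the cKO library nearest to CTRL, and the log2 fold change was −1.03 (SE 0.18, adjusted p = 0.000268). pi-Kctd7 had 463, 476, 451, 490 and 496 against 358, 350, 328, 293 and 288 (−0.56, SE 0.07, adjusted p = 1.51e-05), again with every cKO library below every CTRL library. pi-Mgll, on the gene of monoacylglycerol lipase, and pi-1700016M24Rik were lower too (−0.62 and −0.58), as was pi-Zdhhc23, on a palmitoyltransferase gene (−0.43), which took the other sign (0.12) under miRNA scaling.

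The changes in the 2 cell types, measured in separate libraries, had the same sign at 106 of 114 loci (Spearman rho 0.824, Pearson r 0.821 over loci), and at 81 of 100 band-named clusters (rho 0.832). In both cell types 65 pi- loci were higher and 9 lower (57.0% and 7.89%, where 34.1% and 27.1% of all clusters were). The 9 were pi-1700006A11Rik, pi-BC026590, pi-Eif4ebp2, pi-Gm5878, pi-Igsf9b, pi-Kctd7, pi-Tbl2, pi-Tmem194 and pi-Zmat3. Without libraries S16 and S22 the counts were 71 higher and 14 lower in Sc and 81 and 18 in RS. For these counts no share of all clusters is given here. In both cell types 64 were then higher and 11 lower (34.1% and 30.4% of all clusters).

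The size of the change followed the level of the locus. To keep the level and the change in separate libraries, the change in RS was set against the level in Sc CTRL. Of the 38 loci with the lowest levels (2.17 to 11.05 CPM), 35 were higher in cKO RS and none lower, with a median log2 fold change of 1.44. Of the 38 in the middle (12.6 to 75.3), 30 were higher and 1 lower, with a median of 0.79. Of the 38 with the highest levels (80.9 to 5911), 10 were higher and 14 lower, with a median of −0.13. The change in Sc, set against the level in RS CTRL, gave 30 higher and none lower, 28 and 2, and 12 and 10, with medians of 0.84, 0.61 and 0.04. Without S16 and S22 these sets gave 37 and none, 33 and 1, and 11 and 17 in RS, and 27 and none, 29 and 2, and 15 and 12 in Sc. Over the 114 loci rho was −0.801 (r −0.779) in RS and −0.634 (r −0.623) in Sc, and over the 100 band-named clusters −0.316 (r −0.512) and −0.472 (r −0.411). Locus length and the share of the locus in exons had rho of 0.126 and −0.000417 with the change in RS. The 6 largest loci went from 56.7% to 50.1% of pi- reads in RS and from 56.0% to 50.3% in Sc, and the median level of a locus from 36.0 to 55.1 and from 34.0 to 52.7 CPM.

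**Figure D2:**
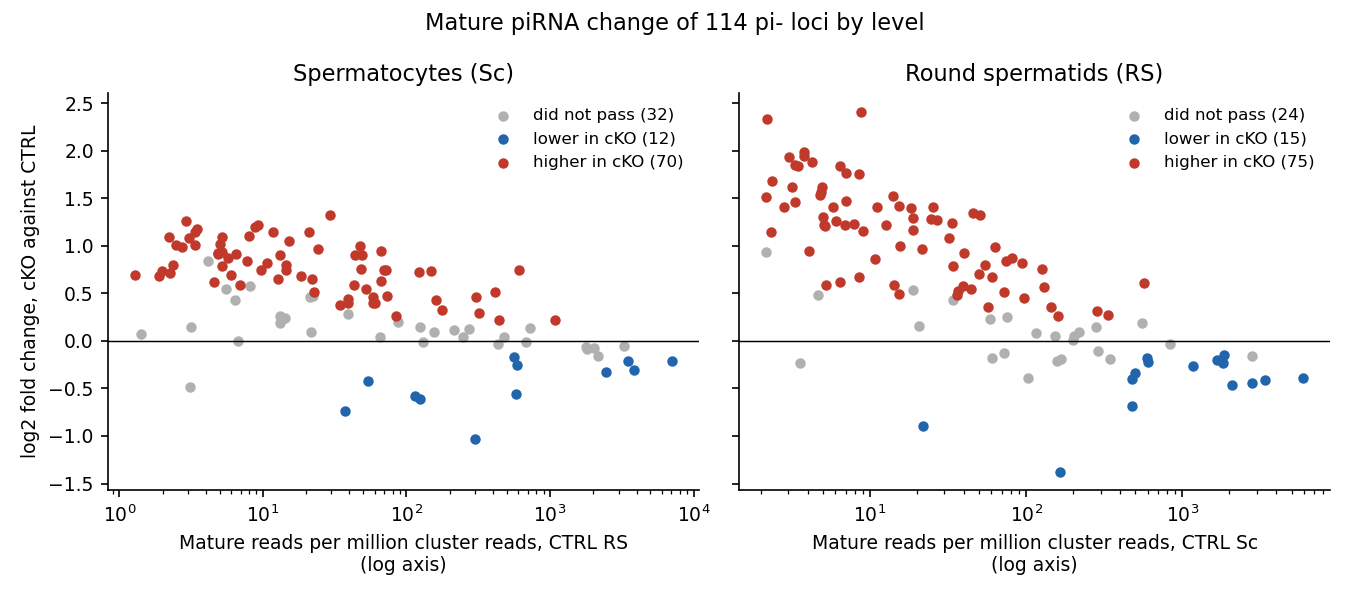
Log2 fold change of mature piRNA, cKO against CTRL, in RS and in Sc (y axis) against the level of the locus in CTRL of the other cell type (x axis, CPM, log scale), for the 114 pi- loci, coloured by whether they passed the test as higher or lower. Of the 38 loci with the lowest levels 35 were higher and none lower in RS and 30 and none in Sc, and of the 38 with the highest 10 and 14, and 12 and 10, with Spearman rho −0.801 in RS and −0.634 in Sc.

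The loci were also counted by the role of their host gene. Of all pi- loci, 65.8% were higher and 13.2% lower in RS and 61.4% and 10.5% in Sc, and of all clusters 39.7% and 36.9%, and 40.2% and 30.4%. Of 30 loci on genes of chromatin and transcription factors, 24 were higher and 2 lower in RS (median 0.88), and 21 and none in Sc (0.60). Of 16 on kinases, phosphatases and signalling genes, 14 were higher and none lower in RS (1.29), and 13 and none in Sc (0.86). Of 13 on ubiquitin ligase genes, 7 were higher and 3 lower in RS (0.54), and 7 and 1 in Sc (0.26). Of 10 on genes of RNA binding and translation, 4 were higher and 3 lower in RS (0.00), and 4 and 2 in Sc (0.28). pi-Trim71 was counted here and not among the ubiquitin ligase genes. No difference between these groups was tested.

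The change was larger in RS than in Sc at 8 loci and smaller at none by the interaction term of 1 fit over all 4 groups, where 4.21% and 0.467% of all clusters passed. At an unadjusted p under 0.05 there were 32 loci in either direction, and DESeq2 called 2 lower. The largest differences of log2 fold changes were at pi-Ssh1 (1.70, SE 0.44, adjusted p = 0.0375), pi-Dnmt3a, on the gene of a DNA methyltransferase (1.48, SE 0.28, adjusted p = 0.0136), and pi-Trim71 (1.45, SE 0.31, adjusted p = 0.0189). pi-Dnmt3a had 3.28, 2.92 and 3.25 against 9.66, 7.87 and 10.4 CPM in RS (1.56) and did not pass in Sc (0.14, adjusted p = 0.506). Under miRNA scaling pi-Dnmt3a and pi-Trim71 took the other sign (−0.05 and −0.10) and 95 loci were called lower and none higher, while the median of all clusters moved by −1.52. This count rests on single libraries. It was 25 higher and 3 lower without S16 and S22, 21 without S16, 16 without S25, 5 without S23 or S30, 4 without S17 or S24, 3 without S18, S20, S26 or S28, 1 without S15 and 0 without S19 (at most 8 lower, without S25), and 5 by library size alone. S16 and S22 were picked from these same reads for lying near the other cell type, so the count without them is no separate test.

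Between the cell types, mature piRNA of pi- loci in CTRL was nearly balanced. From Sc to RS, 29 loci were higher and 26 lower, with 33.2% and 27.6% of all clusters, and the median was −0.03. The groups did not overlap at 53 loci, as at 58.4% of all clusters, and the level in Sc and RS had rho 0.991 over loci. pi-Zmat3 was the most increased, at 140 to 157 CPM in Sc (median 155, n = 5) and 273, 282 and 249 in RS, and all RS libraries were above all Sc libraries (0.83, SE 0.06, adjusted p = 1.14e-06). pi-1700016M24Rik was the most decreased, at 170 to 192 in Sc (median 191) and 100, 109 and 96.7 in RS, without overlap (−0.85, SE 0.07, adjusted p = 2.07e-06). pi-Igsf9b, pi-Rc3h1, pi-Arhgap20 and pi-Klhl11 were also higher in RS (0.74, 0.67, 0.58 and 0.57), and pi-Trim71, pi-Igf2bp1, pi-Ctdsp2 and pi-Zfp346 lower (−0.82, −0.80, −0.70 and −0.70). Scaled to miRNAs, the median of all clusters moved by +1.11, pi-1700016M24Rik and these 4 lower loci took the other sign, and 105 loci were higher and none lower. Without S19 the lower count was 17.

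In cKO no pi- locus differed between Sc and RS by edgeR, as 0.0% of all clusters, with 9 loci at an unadjusted p under 0.05 and none called by DESeq2. pi-Zmat3 had 58.1 to 146 CPM in the 5 Sc cKO libraries and 154, 82.8 and 137 in RS, which overlapped. The 2 loci without overlap were pi-Dnmt3a (4.87 to 7.04 against 10.5, 8.44 and 11.3) and pi-Ssh1 (2.96 to 4.83 against 8.69, 5.43 and 6.90), both higher in RS but not passing (adjusted p = 0.577 each), where 2.34% of all clusters were without overlap. Without libraries S16 and S22, which lay near the other cell type, 27 loci were higher in RS and 4 lower. Both libraries were picked from these same reads for that nearness, so more calls without them were likely beforehand. The count is therefore no separate test of a difference between the cell types.

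Fewer pi- precursors passed in spermatocytes than in round spermatids. In Spc 14 were higher and 20 lower in cKO, with 20.6% and 14.0% of all precursors, and the median log2 fold change was −0.03. The groups did not overlap at 46, as at 45.3% of all. pi-1700016M24Rik had 40950, 38480 and 38270 CPM in CTRL and 88990, 75660 and 79310 in cKO, a rise without overlap of 1.05 (SE 0.08, adjusted p = 0.000478). pi-Mgll had 7211, 7046 and 6877 against 13240, 10050 and 10730, also without overlap (0.69). These are 2 of the loci whose mature piRNAs were lower in cKO Sc. On the lower side, pi-Ssh1 had 181, 454 and 314 against 62.8, 91.8 and 153, and the groups were apart (−1.62, SE 0.40, adjusted p = 0.0193). pi-Luzp1 (chr4:136469764-136554782, plus strand) had 7925, 3211 and 4030 against 1921, 2274 and 1411, also apart, with 1 CTRL library well above the other two (−1.44, adjusted p = 0.0159). pi-Igsf9b (−1.47), pi-Bend4 (−1.24) and pi-Uhrf1bp1 (−0.99) were lower too. By library size alone 8 were higher. The lower count was 8 without Spc cKO replicate 2 and 12 without cKO replicate 1 or 3, and pi-Ssh1, pi-Luzp1 and pi-Uhrf1bp1 each lost the call without one or more single libraries.

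In RS 40 pi- precursors were higher in cKO and 32 lower, with 31.0% and 23.0% of all precursors, and the median was 0.09. Of them 4 were higher and 8 lower by at least 1.5, sizes that 3.29% and 4.69% of all reached, and the groups did not overlap at 85, as at 62.9% of all. pi-Luzp1 changed most, with 64140, 57900 and 72180 CPM in CTRL and 7088, 11210 and 8724 in cKO. Every cKO library was far below every CTRL library (−2.85, SE 0.25, adjusted p = 2.19e-07). pi-Asb1 (chr1:91540016-91559583, plus strand), on the gene of a SOCS box protein, had 11640, 9154 and 12390 against 1834, 2709 and 2840, and pi-Uhrf1bp1 (chr17:27856507-27900040, plus strand) had 8745, 9752 and 10290 against 1811, 3079 and 1872. Both were lower without overlap (−2.17 and −2.09), as were pi-Ctdsp2, on the gene of a phosphatase of the RNA polymerase II tail (−1.80), and pi-Lpp (−1.74). pi-Zfp346, on the gene of a zinc finger protein that binds double-stranded RNA, was the most increased, with 1209, 1454 and 1119 against 3642, 5284 and 4495 (1.83, SE 0.21, adjusted p = 2.82e-06). pi-Pou6f1 (1.74), pi-Gtf3c4 (1.57), pi-Mgll (1.54) and pi-Mllt6 (1.44) followed, the groups of all 4 being apart. Scaled to the reads of genes and repeats, the median of all precursors moved by +0.44 and 21 pi- loci were lower. The higher count was 24 without RS CTRL replicate 3.

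In CBs 8 pi- precursors were higher in cKO and 13 lower, with 7.48% of all precursors in each direction. Of them 5 were higher by at least 1.5, as 2.8% of all, and the groups did not overlap at 28, as at 26.2%. pi-Mllt6 had 114, 92.7, 146 and 65.3 CPM in the 4 CTRL preparations and 179, 594 and 336 in the 3 cKO preparations. The groups were apart, with 1 cKO value close to the highest of CTRL (1.83, SE 0.37, adjusted p = 0.00566). pi-Luzp1 had 5127, 5724, 7328 and 4013 against 2720, 2300 and 1788, all cKO values being lower (−1.29, SE 0.21, adjusted p = 0.00109). pi-Ssh1 (1.79), pi-Tet3, on the gene of a methylcytosine dioxygenase (1.60), and pi-Hic2, a repressor gene (0.72), were higher, and pi-Lpp (−1.31), pi-Igsf9b (−1.19), pi-Ppm1f (−1.13) and pi-Tfcp2l1 lower. Against RS, where the libraries were separate, 7 pi- precursors were higher in both, 12 lower in both, and pi-Foxo3 was lower in RS and higher in CBs, where its groups overlapped (rho 0.571 over loci). Of all precursors 5.16% were higher in both, 6.57% lower in both and 0.939% lower in RS and higher in CBs, against 6.14%, 10.5% and 0.877% of pi- precursors. Scaled to the reads of genes and repeats, the median of all precursors in CBs moved by +0.12 and 14 pi- precursors were higher and 6 lower. The counts rest on few libraries, labelled as in the table. The higher count was 13 without MKO2, 4 without MKO3 and 5 without MKO4, the lower count 3 without MKO4, 6 without MVHCTRL2 and 7 without MKO3. pi-Ssh1 lost its call without MKO4, pi-Igsf9b without MKO4 or MVHCTRL2, and pi-Ppm1f and pi-Tfcp2l1 without several libraries each.

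**Figure D3:**
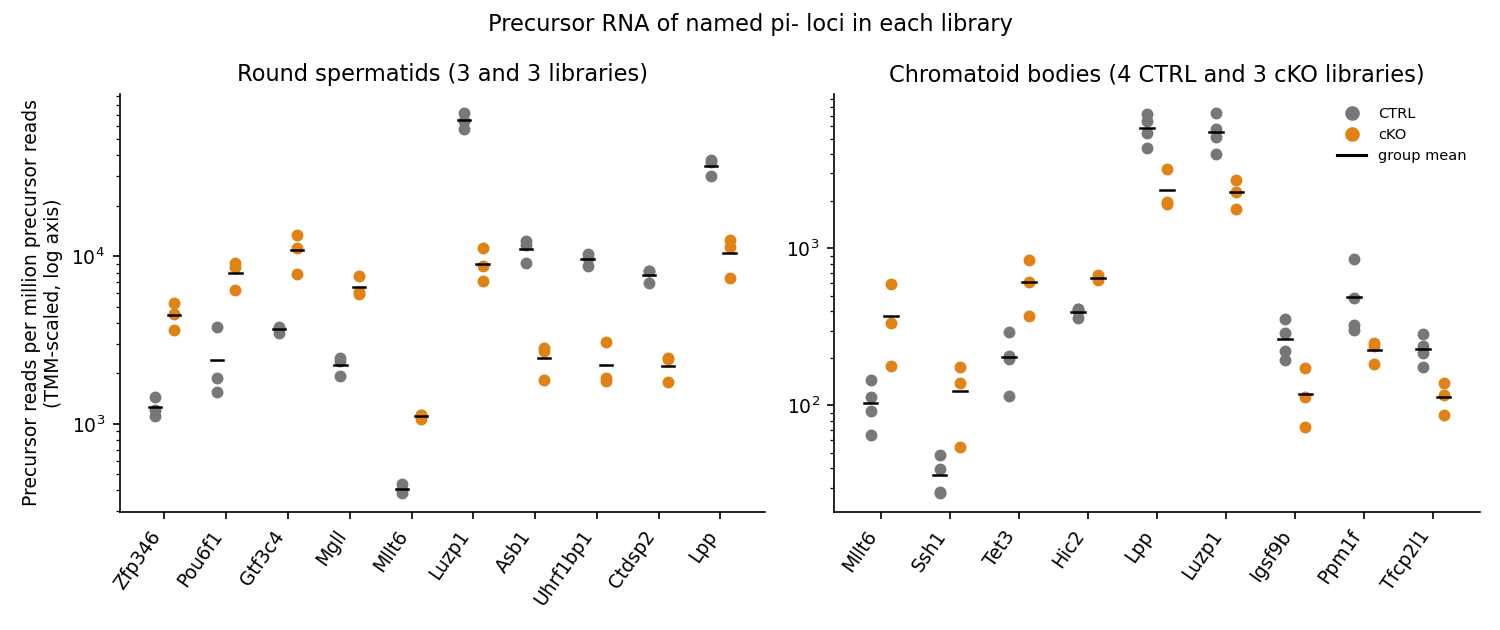
Precursor CPM of precursor reads (log axis) in each long RNA library for named pi- loci in RS and in CBs, with CTRL and cKO libraries as separate points and bars at the group means. pi-Luzp1 falls from between 57900 and 72180 in RS CTRL to between 7088 and 11210 in RS cKO, and from between 4013 and 7328 to between 1788 and 2720 in CBs.

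The precursor change differed between RS and Spc at 46 loci by the interaction term, 23 in each direction, with 13.1% and 18.7% of all precursors. pi-Ssh1 differed most: its precursor fell in cKO Spc and rose in cKO RS (75.6, 106 and 74.8 against 157, 142 and 242, 1.08, adjusted p = 0.00996), a difference of 2.67 (SE 0.57, adjusted p = 0.0052). pi-Bend4 and pi-D10Wsu102e were also lower in Spc and higher in RS (differences of 2.06 and 1.57). pi-Mllt6 and pi-Ndst1 had positive differences too (1.82 and 1.31). On the other side pi-Asb1 (−1.74, adjusted p = 0.000378), pi-Ppm1f (−1.53), pi-Ctdsp2 (−1.53), pi-Socs7 (−1.49) and pi-Luzp1 (−1.46, adjusted p = 0.0173) had negative differences. All 5 were lower in cKO RS, and of them pi-Asb1 and pi-Luzp1 were also lower in Spc (−0.47 and −1.44), whereas pi-Ctdsp2, pi-Socs7 and pi-Ppm1f did not pass there (−0.32, −0.05 and 0.30). In both cell types 9 loci were higher and 14 lower (7.89% and 12.3%, where 13.1% and 8.92% of all precursors were), and 3 were lower in Spc and higher in RS (1.41% of all). The higher count was 15 without Spc cKO replicate 2, where pi-Luzp1 lost its call, 39 with 9 lower when scaled to genes and repeats, and 51 with 6 lower by library size alone. DESeq2 called 38 lower. Scaled to genes and repeats the median difference of all precursors moved by +0.36, and by library size alone by +0.48.

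From Spc to RS of CTRL, pi- precursors went up and band-named precursors down when scaled within the precursor table. Of 114 loci, 80 were higher in RS and 14 lower, with 42.7% and 41.8% of all precursors, and the median log2 fold change was 0.89. Of 99 band-named precursors tested, 11 were higher and 75 lower (median −1.12). The groups did not overlap at 100 pi- loci, as at 87.8% of all. pi-Luzp1 had 7186, 2913 and 3630 CPM in Spc and 65620, 62540 and 74750 in RS, the largest increase, without overlap (3.89, SE 0.36, adjusted p = 5.34e-05). pi-Ctdsp2 went from 944, 584 and 685 to 8377, 7510 and 8441, also without overlap (3.46), and pi-Il17rd, pi-Uhrf1bp1 and pi-Hist1h1a, on a linker histone gene, rose alike (3.44, 3.41 and 3.39). The largest producer of mature piRNA went the other way: pi-Gm5878 had 5255, 4356 and 5228 in Spc and 1525, 2059 and 1804 in RS, again without overlap (−1.46, SE 0.14, adjusted p = 6.1e-05). pi-Ssh1 (−1.68), pi-1700006A11Rik (−1.48), pi-Mgll (−1.43) and pi-Zfp346 (−1.19) were lower as well. Scaled to genes and repeats the median of all precursors moved by −1.83, and 16 pi- loci were higher and 83 lower, while 89 of the 114 lay above the median of all precursors under both scalings. By library size alone 27 were lower. Over the loci the change of the precursor between cell types had rho −0.0787 with that of mature piRNA.

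In cKO the same comparison gave 93 pi- loci higher in RS and 8 lower, with 47.7% and 40.7% of all precursors, and a median of 1.06 (band-named −1.27, 9 higher and 79 lower). Scaled to genes and repeats, 10 were higher and 55 lower, and 96 of the 114 were above the median of all precursors. pi-Il17rd led (2.93), and pi-Luzp1 went from 1754, 2209 and 1366 to 8634, 11500 and 9592, a rise without overlap of 2.48. pi-Gm5878 (−1.43), pi-1700006A11Rik (−1.03), pi-Zfp382 (−0.89) and pi-Kctd7 (−0.71) were lower in RS.

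**Figure D4:**
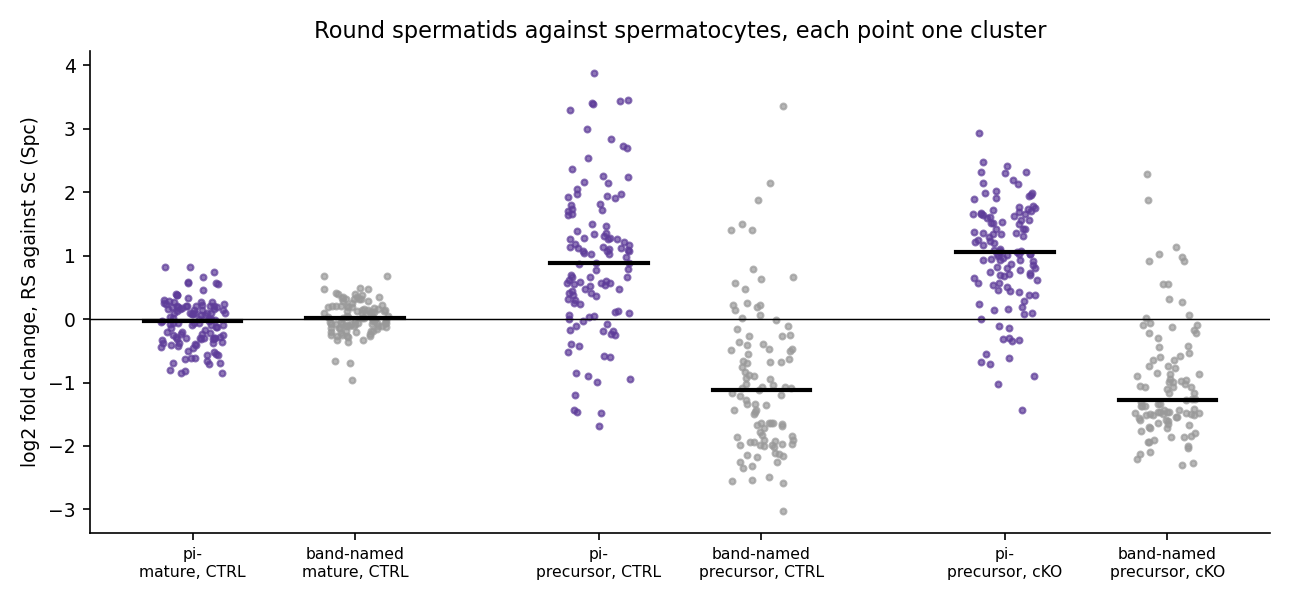
Log2 fold change of RS against Sc (Spc) for each pi- locus and band-named cluster (points, bars at the medians), for mature piRNA in CTRL and for precursors in CTRL and cKO, each scaled within its own table. Medians of pi- precursors are 0.89 in CTRL and 1.06 in cKO against −1.12 and −1.27 for band-named precursors, and the mature medians lie near 0.

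Mature and precursor changes of the genotype had the same sign at 53 of the 114 loci in Sc (Spc), at 68 in RS, and at 75 between mature piRNA of RS and the precursor in CBs. Over the loci rho was 0.0794 in Sc (Spc) and 0.255 in RS, and 0.398 between mature piRNA of RS and the precursor in CBs, as descriptions over loci. In RS 56 loci passed in both tables. At 34 both were higher and at 5 both lower (pi-Arhgap20, pi-Asb1, pi-Igsf9b, pi-Tmem194 and pi-Zmat3). At 15 mature piRNA was higher and the precursor lower, among them pi-Ctdsp2, pi-Foxo3, pi-Igf2bp1, pi-Il17rd, pi-Lpp, pi-Rplp1 and pi-Uhrf1bp1, and at 2, pi-1700006A11Rik and pi-BC026590, the reverse held. Of all clusters, 17.4% were higher in both, 7.51% lower in both, 7.98% higher in mature piRNA and lower in the precursor and 8.92% the reverse, and of the pi- loci 29.8%, 4.39%, 13.2% and 1.75%. Without S16 the 4 counts of pi- loci were 34, 8, 20 and 2. In Sc 26 passed in both tables, 8 higher in both, 13 with mature piRNA higher and the precursor lower, 3 lower in both (pi-Igsf9b, pi-Tmem194 and pi-Zmat3), and 2, pi-1700016M24Rik and pi-Mgll, with mature piRNA lower and the precursor higher. The shares in this order were 7.02%, 11.4%, 2.63% and 1.75% of pi- loci and 6.07%, 7.01%, 3.74% and 9.35% of all clusters, and without S22 the 4 counts were 8, 12, 5 and 2. The 2 highest risers of mature piRNA in RS had higher precursors there too: pi-Trim71 had 217, 289 and 243 precursor CPM in CTRL and 632, 445 and 309 in cKO, apart (0.89), and pi-Ssh1 1.08.

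**Figure D5:**
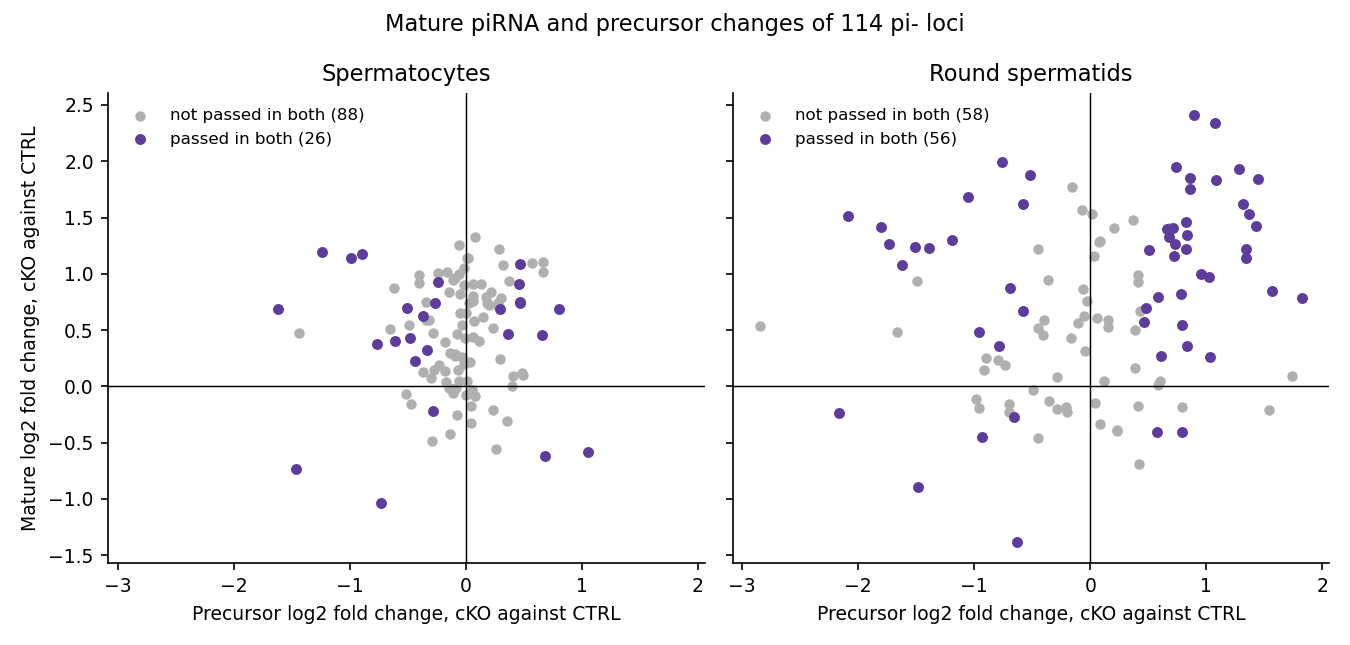
Log2 fold change of mature piRNA (y axis) against that of the precursor (x axis), cKO against CTRL, for the pi- loci in Sc (Spc) and in RS, 1 point per locus and coloured where both changes passed. The points spread over all 4 quadrants, with Spearman rho 0.0794 in Sc and 0.255 in RS.

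Mature reads per precursor read, tested as the assay by genotype term of 1 fit over both kinds of library, were more often higher in cKO. According to the methods, small RNA came from the samples that also gave the long RNA. The fit treated all libraries as independent, since the small RNA columns carry no replicate number, so its p-values leave this pairing out. In RS 53 pi- loci were higher and 12 lower, with 29.6% and 20.7% of all clusters, and the median was 0.58. By at least 1.5, 21 were higher and 2 lower, as 10.8% and 5.16% of all. pi-Uhrf1bp1 changed most (3.60, SE 0.37, adjusted p = 2.68e-06), from 0.000350 to 0.00410 mature reads per precursor read, and had 3.86, 3.60 and 2.61 against 11.7, 6.19 and 9.87 mature CPM beside the precursor values above. pi-Luzp1 (3.38) went from 0.000346 to 0.00360, while its mature piRNA by itself did not pass (0.53, adjusted p = 0.0774). pi-Ctdsp2 (3.21), pi-Lpp (3.00) and pi-Igf2bp1 (2.75) followed. The largest decreases were at pi-Mgll (−1.76, adjusted p = 6.8e-06), pi-Pou6f1 (−1.65), pi-1700006A11Rik (−1.20, from 1.54 to 0.671), pi-Kctd7 (−1.11, from 0.576 to 0.267) and pi-Zfp346 (−1.04). Scaled to miRNAs and genes instead, the median of all clusters moved by −1.36, 15 pi- loci were higher and 67 lower, and the pi- median stayed 0.46 above that of all (0.47 before).

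In Sc 58 loci were higher and 8 lower in mature reads per precursor read, with 33.2% and 27.6% of all clusters, and the median was 0.51. Scaled to miRNAs and genes, 92 were higher and 2 lower (median 1.03, with that of all clusters moved by +0.55), and by library size alone 90 and 3. pi-Bend4 (2.43), pi-Ssh1 (2.31), pi-Uhrf1bp1 (2.13), pi-Foxo3 (2.06) and pi-Luzp1 (1.91) had the largest increases. pi-1700016M24Rik (−1.63), pi-Mgll (−1.30), pi-Kctd7 (−0.81), pi-1700006A11Rik (−0.66) and pi-Gm5878 (−0.44, from 1.08 to 0.796) had the largest decreases, of which pi-Gm5878 took the other sign (0.10) when scaled to miRNAs and genes. The median locus went from 0.0367 to 0.0609 mature reads per precursor read in Sc and from 0.0197 to 0.0334 in RS. Without S16 and S22 the counts were 59 and 11 in Sc and 63 and 13 in RS.

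The genes on which the loci lie were also counted in the table of genes, with reads that the precursor table partly shares. Of 113 such genes, 11 were higher and 14 lower in cKO Spc (13.8% and 13.6% of all genes) and 63 higher and 25 lower in RS (40.1% and 32.7%), with medians of −0.02 and 0.52. In CBs 17 of 108 were higher and 11 lower (16.3% and 18.6%), with a median of 0.14. By library size alone 10 were lower in RS. The precursor and gene changes had rho of 0.961, 0.981 and 0.915. Their medians are not on 1 scale, since genes were scaled within the gene table and precursors within the precursor table. Scaled to genes and repeats, the median of pi- precursors in RS was 0.50, against 0.09 within the precursor table. In Spc the host counts moved without single libraries, to 6 higher and 3 lower without cKO replicate 1, and to 5, 8 and 3 lower without cKO replicate 3, CTRL replicate 2 and CTRL replicate 3, and the lower count in CBs to between 5 and 7 without MKO3, MKO4, MCTRL1 or MVHCTRL3.

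Of 27 genes of piRNA biogenesis and PIWI proteins, 26 were tested in Spc and RS and 25 in CBs. In Spc 7 were higher in cKO and none lower by edgeR, against the same 13.8% and 13.6% of all genes, with 10 at an unadjusted p under 0.05 and 1 called lower by DESeq2. They were Piwil4, a PIWI protein of fetal gonocytes (1.57), Pnldc1, the trimmer of piRNA 3′ ends (0.55), the Tudor genes Tdrd5, Tdrd9 and Tdrd12 (0.45, 0.32 and 0.54), the helicase Mov10l1 (0.31) and Exd1 (0.32). In RS 16 were higher and 6 lower (40.1% and 32.7% of all). The higher ones included Pnldc1 (1.76), Tdrd5 (1.60), Piwil4 (1.52), Mov10l1 (1.00), the regulator Btbd18 (0.98), Piwil1, the main PIWI protein of RS (0.81), and Mybl1 (0.73). The lower ones were Gtsf1 (−1.32), Mael (−0.74), Rnf17 (−0.61), Tdrd7 (−0.48), Ddx4 (−0.46) and the chaperone Hsp90aa1 (−0.39). In CBs Tcfl5 (0.76) and Hsp90aa1 were higher and Gtsf1 (−1.26), Mael (−0.75) and Rnf17 (−0.52) lower (16.3% and 18.6% of all). The Spc count of 7 was 2, 3 and 1 without cKO replicate 1, cKO replicate 3 and CTRL replicate 3, the 6 lower in RS were 2 by library size alone, the RS count of 16 was 10 without CTRL replicate 1, and the higher count in CBs was 0 without MKO3, MCTRL1 or MVHCTRL2 and 1 without MCTRL5.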

How the data were processed

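The piRNA cluster and precursor tables held expected counts that the authors obtained by counting small RNA reads (HISAT2 2.1.0, mm10) or long RNA reads (cutadapt 2.8, STAR, GRCm38) over cluster loci with featureCounts. The file headers of the precursor tables give featureCounts 2.0.1 and the submitters' processing notes STAR 2.7.1a, where the methods name other versions of both. Reads of several positions were shared as fractions, and long reads were counted by strand, while the strand setting of the small RNA reads is not given in the sources used here. The gene and repeat tables (TEtranscripts) and the miRNA table (SPORTS) were deposited as counts.

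Expected counts were rounded. Clusters needed 1 read in every library, precursors 10 in total and genes 10 in 3 libraries. edgeR 4.0.16 (R 4.3.3, limma 3.58.1) quasi-likelihood tests with TMM scaling were two-sided, adjusted by Benjamini-Hochberg over all rows of a fit, and passed at 0.05. Scripts were tested on simulated data. Alternatives were DESeq2 1.42.0, library-size, miRNA or gene scaling, no filter, a replicate block and single libraries left out. Shares were compared by exact permutation. Reads per library are given with the results and limit the precision of low loci.

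Loci were named when among the 5 highest or 5 lowest fold changes that passed without overlap between groups, the 6 highest mature counts, or the 3 highest or lowest ratios of mature to precursor reads. Of the loci that passed in both mature and precursor RNA of RS, only some were named. Members, gene lists and promoter motifs were chosen with earlier results of these data known. Repeats entered only the gene fits and the scaling to genes and repeats. The tRNA fragments and transcript tables were not used here.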

Additional observations from a re-analysis of the deposited data

Results flagged for a closer look

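Of 46 groups of 4 to 10 libraries of named loci tested for a library far from the others, 1 was found, and chance gives about 1 in 20. In Sc cKO, pi-Cbl had 2792 CPM of mature piRNA in library S21, away from the other 4 libraries.

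The change in cKO differed between RS and Sc by the interaction term (edgeR). In mature piRNA the difference of log2 fold changes, RS minus Sc, was 1.70 at pi-Ssh1, 1.48 at pi-Dnmt3a, 1.45 at pi-Trim71, 1.03 at pi-D10Wsu102e and 0.96 at pi-March08. Under miRNA scaling all of these but pi-Ssh1 took the other sign, and without S19 no locus was called higher. In precursors, RS minus Spc, it was 2.67 at pi-Ssh1, 2.06 at pi-Bend4, 1.82 at pi-Mllt6, 1.57 at pi-D10Wsu102e and 1.31 at pi-Ndst1. It was −1.74 at pi-Asb1, −1.53 at pi-Ppm1f, −1.53 at pi-Ctdsp2, −1.49 at pi-Socs7 and −1.46 at pi-Luzp1.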

How the results depend on the processing

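Counts of pi- loci higher and lower in mature piRNA of Sc and RS stayed within 1.5 times under DESeq2, without a filter and without any single library (63 to 71 and 12 to 14 in Sc, 64 to 81 and 11 to 18 in RS). Other counts moved as follows, and the cause was not tested. With library size in place of TMM, 3 loci were lower in mature Sc and 3 in mature RS, 5 were higher in the mature interaction and 8 in Spc precursors, 51 higher and 6 lower in the precursor interaction, 27 lower in CTRL precursors of RS against Spc, and 90 higher and 3 lower per precursor read in Sc. Among genes it gave 2 pathway genes lower in Spc and 2 in RS, 10 host genes lower in RS and 1 pathway gene higher in CBs. With miRNA scaling 1 was lower in mature Sc, 23 higher and 47 lower in mature RS, 0 and 95 in the interaction, and 105 and 0 for RS against Sc in CTRL. With gene scaling 21 precursors were lower in RS, 39 higher and 9 lower in the interaction, 14 and 6 in CBs, 16 and 83 for RS against Spc in CTRL and 10 and 55 in cKO. With both, per precursor read, the counts were 92 and 2 in Sc and 15 and 67 in RS. DESeq2 gave 2 lower in the mature and 38 lower in the precursor interaction, 1 pathway gene lower in Spc and 1 higher in CBs. With no filter 1 pathway gene was lower in Spc. Leaving out S16 and S22 was added after seeing the data, and both were picked from the same reads. The mature interaction then gave 25 and 3, and RS against Sc in cKO 27 and 4.

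The sign turned with miRNA scaling at pi-Zdhhc23 in mature Sc (0.12), at pi-Dnmt3a (−0.052), pi-Trim71 (−0.10), pi-D10Wsu102e (−0.53) and pi-March08 (−0.58) in the mature interaction, and at pi-1700016M24Rik (0.27), pi-Trim71 (0.28), pi-Igf2bp1 (0.31), pi-Ctdsp2 (0.41) and pi-Zfp346 (0.41) for RS against Sc in CTRL. With miRNA and gene scaling it turned at pi-Gm5878 per precursor read in Sc (0.10). The precursor share in Spc fell by 2.19 percentage points in cKO without the 10 rows of the precursor table with the highest mean count, pi- or band-named (exact p = 0.2).

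Without single libraries the counts ranged from 0 to 21 higher and 0 to 8 lower in the mature interaction, 17 to 27 lower for mature RS against Sc in CTRL, 8 to 18 lower in Spc precursors, 24 to 37 higher in RS precursors, 15 to 27 higher in the precursor interaction, and 4 to 13 higher and 3 to 15 lower in CBs. For pathway genes they were 1 to 6 higher and 0 to 1 lower in Spc, 10 to 18 higher in RS and 0 to 3 higher in CBs, and for host genes 6 to 11 higher and 3 to 16 lower in Spc and 5 to 11 lower in CBs. pi-Fbxo41 in Spc precursors lost its call under 10 alternatives.

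By the correlation of same-numbered deviations from the group means, replicate numbers of Spc and RS long RNA libraries were not taken to pair the samples, neither between genotypes (−0.65 to 0.291) nor between cell types (−0.263 to 0.562). CBs were not tested. With a replicate block 14 precursors were higher and 22 lower in Spc, 36 and 28 in RS, 80 and 13 for RS against Spc in CTRL and 90 and 7 in cKO, and 4 pathway genes were higher and 2 lower in Spc. Columns of the small RNA and CB tables carry no such number, so blocked fits there, fits per precursor read with a block and a fit on Sc libraries 1 to 3 alone were not run. Loci of a few reads per library are the least certain.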
